A study of Mus musculus with 28 samples.

Results

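The genes described here encode the proteins of the cytosolic ribosome. They were chosen by symbol: protein-coding genes whose symbol begins with Rpl or Rps followed by a digit, together with Rplp0, Rplp1, Rplp2 and Rpsa, leaving out the Rps6 kinases and symbols that end in "-ps". The choice gave 86 genes of the 45513 in the count tables, or 0.189% of them: 34 with small subunit symbols and 52 with large subunit symbols. A few of these are not core genes. Rps19bp1 encodes a protein that binds Rps19 rather than a subunit, and Rpl3l, Rpl10l, Rpl22l1, Rpl39l, Rpl7l1, Rpl36al, Rps27l and Rps27rt are paralogs of a core gene.

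From 14 mouse cultures, libraries of ribosome footprints and of total mRNA were sequenced, 28 in all. The study asked whether human TDP-43, an RNA-binding protein, or its A315T form, found in some patients with amyotrophic lateral sclerosis, changes translation of particular mRNAs. MN1 cells, a clonal hybrid of mouse spinal motor neurons and a neuroblastoma (passages 10 to 12), were transiently transfected with GFP, hTDP-43 or hTDP-43A315T (2 cultures each) and received 100 µg/ml cycloheximide for 3 min before lysis. Cortical neurons were taken on embryonic day 16 from C57BL/6J mice that were non-transgenic (WT, 2 cultures) or hemizygous for hTDP-43 or hTDP-43A315T (A315T below) under the prion promoter (3 cultures each). These were harvested on day 14 in vitro after cytosine arabinoside, which kills dividing cells, had been added, and the methods state no cycloheximide treatment of them before lysis. MN1 cells therefore carry a tumour parent and express the transgene briefly, whereas the neurons carry it from the germ line. Total mRNA was selected by its poly(A) tail and footprints were not. Cell type and the handling of the cells cannot be told apart in any comparison between the cell types, and in such bulk samples fewer cells of a type cannot be told from less RNA per cell.

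The cytosolic ribosome consists of a small subunit, which reads the mRNA, and a large subunit, which joins the amino acids, and its proteins are needed in nearly equal numbers. Their mRNAs belong to the TOP class: they typically begin with a C followed by an unbroken run of pyrimidines, and their translation depends on the kinase mTOR and the cap-binding protein Larp1. Growing cells spend much of their transcription and translation on ribosomes, and neurons also keep some ribosomal protein mRNAs in their processes.

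Sequences around the annotated starts show the feature that defines this class and how often the annotation places it at the first base. Of the 86 genes, 66 had an entry among the RefSeq promoters, with 78 starts between them. The search was for a C at the first transcribed base followed by at least 4 bases that are each C or T, on the strand of the gene. Of the 78 starts, 14 (17.95%) matched, against 823 of 32851 starts in all promoters (2.505%), 2 of 9 for other TOP mRNAs and 0 of 74 for mitochondrial ribosomal proteins. The windows below run from 10 bases before the start to 15 bases from it (GRCm38.p6, RefSeq, 5′ to 3′), with the pyrimidine run in capitals. Rps6, a target of the mTOR pathway in the small subunit, lay at chr4:86857353-86857377 on the minus strand, and Rpl35, which had the highest ratio of footprints to total mRNA in neurons, at chr2:39005117-39005141 on the minus strand. Rps15a (chr7:118116133-118116157, minus) and Rps27 (chr3:90213634-90213658, minus) are shown because their ratio differed between the cell types.
Rps6: gaagtcgggcCTCTTTTTCgtgacg
Rpl35: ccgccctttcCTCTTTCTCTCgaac
Rps15a: tttctgccatCTTCCCTCgccggtg
Rps27: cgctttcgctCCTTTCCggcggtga

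The next windows had no run at the annotated start. Rpsa (chr9:120127756-120127780, plus) had the lowest ratio of footprints to total mRNA, and Rpl22l1 (chr3:28805498-28805522, plus) and Rpl39l (chr16:10170218-10170242, plus) are paralogs with patterns of their own. Annotated starts can miss the start used in these cells, and Rpl22l1 has a pyrimidine run inside its window that does not begin at the first base.
Rpsa: ttatttaaggacgtcatttccggcc
Rpl22l1: gcgcaagcccgttctcttcccacgg
Rpl39l: aggcctttccggatttccggtggtc

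Ribosomal protein genes took a larger share of the reads in MN1 cells than in neurons. In MN1 footprints they held between 3.74% and 4.29% of the reads assigned to genes (median 4.03%, 6 libraries), and in MN1 total mRNA between 2.22% and 3.04% (median 2.80%). In neurons the share was 0.621% to 0.822% of footprints (median 0.742%, 8 libraries) and 0.240% to 0.876% of total mRNA (median 0.684%). No neuron library reached the lowest MN1 library of its kind. The lowest share, 0.240%, was in the total mRNA of WT replicate 3, and the next lowest, 0.296%, in that of hTDP-43 replicate 3. These 2 libraries stood apart from the other neuron libraries: Lars2, a single gene, held 18.8% and 14.2% of their reads, against 3.09% to 7.49% in the other 6. Values without them are given beside the results for neurons.

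Assigned reads numbered 332370 to 1219222 per MN1 footprint library, 1328528 to 2988339 per MN1 total mRNA library, 166064 to 2528820 per neuron footprint library and 600385 to 6969578 per neuron total mRNA library. The labelled cell types were checked against markers, given as the summed CPM (a gene's reads relative to the TMM-scaled size of the library) of each list over the footprint libraries. Neuron markers summed to 6771 to 8212 CPM in neurons and 562 to 699 CPM in MN1 cells, and motor neuron markers to 51.5 to 73.3 CPM in MN1 cells and 5.53 to 25.8 CPM in neurons. Each label's own markers were the higher as a sum. In MN1 cells the motor neuron sum was mostly Isl1 and Slc18a3, with medians of 37.4 and 20.5 CPM (4.54 and 3.57 CPM in neurons). Lhx3 was also higher in MN1 cells (3.74 against 1.04 CPM). Chat (1.78 against 1.89 CPM) and Slc5a7 (1.15 against 1.84 CPM) were not, and Mnx1 had a median of 0 in both. Cycling markers summed to 777 to 1139 CPM in MN1 cells against 2.29 to 8.31 CPM in neurons. In neurons, astrocyte markers reached 81.4 to 194.9 CPM, oligodendrocyte markers 6.84 to 27.6 CPM, endothelial markers at most 5.53 CPM and microglia markers at most 3.88 CPM. In MN1 cells, none of these last 4 lists exceeded 11.3 CPM.

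**Figure D1:**
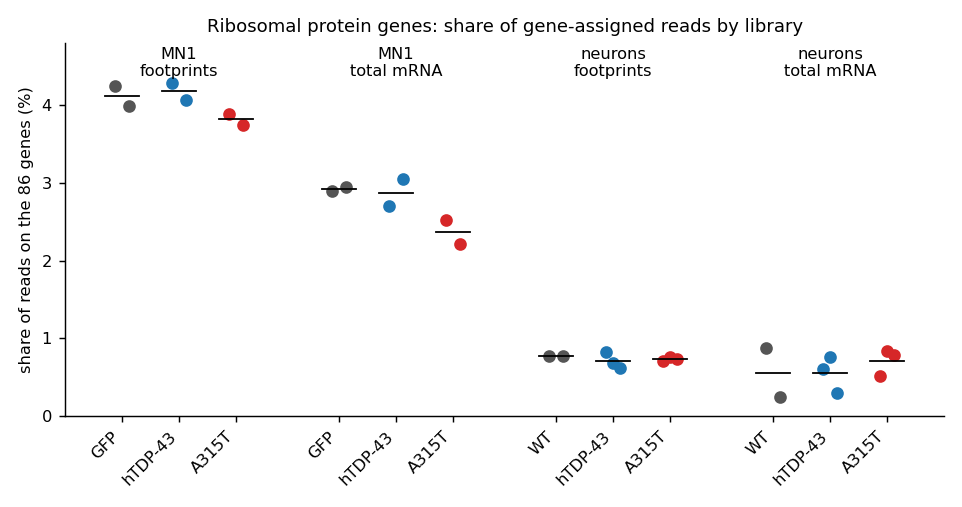
Share of gene-assigned reads (%) on the 86 ribosomal protein genes in each of the 28 libraries (points), by cell type, library type and group, with the group mean as a line. All MN1 libraries lie above 2.2% and all neuron libraries below 0.9%, and 2 neuron total mRNA libraries lie at 0.240% and 0.296%.

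The members were far from equal in measured level. Levels were compared between genes per length, as TPM (reads per exon length, scaled to the same sum in each library). The order of the members depends on the length used. Levels by exon length and by coding length had Spearman correlations of 0.80 and 0.78 in MN1 footprints and total mRNA. In neurons these were 0.73 and 0.72. Among the 83 genes tested in MN1 cells, median footprint levels ran from 14.0 TPM (Rpl22l1) to 4948 TPM (Rps21), with a median of 483.5 TPM, and total mRNA levels from 6.25 TPM (Rpl22l1) to 3202 TPM (Rpl8), with a median of 302.2 TPM. In neurons, footprint levels ran from 3.52 TPM (Rps18) to 997.2 TPM (Rplp1), with a median of 114.5 TPM, and total mRNA levels from 5.46 TPM (Rps18) to 1121 TPM (Rplp1), with a median of 89.9 TPM.

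Rps21, a short protein of the small subunit, and Rpl8, a core protein of the large subunit, headed the MN1 footprints at 4948 and 4930 TPM, followed by Rps26, a small subunit protein at the mRNA exit channel, at 2890 TPM. Rplp1, part of the acidic stalk that recruits elongation factors, stood at 1847 TPM in MN1 footprints. In neurons Rplp1 was followed in footprints by Rpl8 (944.7 TPM) and Rps15, a small subunit protein at the decoding site (804 TPM), and in total mRNA by Rpl8 (644 TPM) and Rpl38, a large subunit protein known for its part in translating Hox mRNAs (558.9 TPM). Rps18, Rpl18 and Rpl22l1 were the 3 lowest in both library types among the 83 members tested within MN1 cells and the 82 tested within neurons, which leave out Rpl3l, Rpl10l and Rps27rt and, in neurons, Rpl39l, all with levels near 0. Rps18 and Rpl18 encode core proteins of the small and large subunit. In MN1 footprints Rps18 was at 22.6 TPM and Rpl18 at 22.7 TPM.

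Much of the sequence of these genes occurs elsewhere in the genome, which bears on their counts. Processed pseudogenes copy the spliced mRNA, and the counting left out reads that aligned to more than 1 place. Of the coding 30-base words of a member, a median of 4.87% were found nowhere else in the genome, against 100% for mitochondrial ribosomal proteins, and only 9 of the 86 members had 50% or more of their words to themselves. The share was 88.7% for Rpl8, 85.5% for Rpl39l and 60.8% for Rps27l, but 7.03% for Rps18 and 0% for Rpsa, Rpl38 and Rps29. Across genes, the Spearman correlation of level (TPM) with that share was 0.17 in MN1 footprints (83 genes), 0.25 in MN1 total mRNA, 0.19 in neuron footprints (82 genes) and 0.28 in neuron total mRNA. These points share libraries and gene lengths, and levels of single genes are uncertain by what was lost to copies.

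Footprints of ribosomal protein genes were lower in neurons than in MN1 cells for nearly all members. By edgeR's quasi-likelihood test with Benjamini-Hochberg adjustment, 82 of the 83 members tested were lower and 0 higher, where 43% of all 10101 genes tested were lower and 41% higher. The median log2 difference of the members was -2.35, a 5.11-fold lower level, with quartiles of -2.63 and -1.92, and that of all genes was -0.06. In 81 of the 83 members each of the 8 neuron libraries lay below each of the 6 MN1 libraries. Overlap was counted over the members only, so no all-gene share stands beside this count. The 33 small subunit members (median -2.43) were all lower, as were 49 of the 50 large subunit members (median -2.20).

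Among core genes, Rpl8 is well placed to show this, since most of its coding words are its own. Its footprints ranged from 1634 to 1967 CPM in MN1 cells (median 1821) and from 225.9 to 394.8 CPM in neurons (median 367.8). The 2 cell types did not overlap, and the log2 difference was -2.66 ± 0.11 (SE, adjusted p = 7.02e-17, edgeR). The proteins of the acidic stalk differed by unequal amounts: -1.98 ± 0.13 for Rplp0, -1.21 ± 0.12 for Rplp1 and -2.16 ± 0.11 for Rplp2. Rps6, the S6 kinase substrate, differed by -2.15 ± 0.14 and Rps19, a small subunit protein mutated in Diamond-Blackfan anaemia, by -2.62 ± 0.12. Rpl5 and Rpl11, which bind the 5S rRNA and, when free, the p53 regulator Mdm2, differed by -2.77 ± 0.14 and -2.38 ± 0.12. Rpl7a and Rpl10a, both large subunit proteins, differed by -1.66 ± 0.12 and -2.22 ± 0.11.

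Among the members that differed most in footprints, apart from Rpl39l, were Rps27l (-3.72 ± 0.18), Rpl41 (-3.49 ± 0.15) and Rps12 (-3.21 ± 0.13). Rpl41 encodes the smallest protein of the ribosome. Its footprints ranged from 868.6 to 1067 CPM in MN1 cells and from 71.7 to 165.5 CPM in neurons, with no overlap. The smallest differences among the members called were those of Rps19bp1 (-1.17 ± 0.16), Rpl38 (-1.19 ± 0.10) and Rplp1.

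In total mRNA the members were lower in neurons as well, by less. Of the 83 members, 81 were lower and 0 higher, where 39.5% of all 12231 genes tested were lower and 42.9% higher. The median log2 difference was -1.79 (3.46-fold lower; quartiles -2.10 and -1.24), and that of all genes was 0.07. In 76 members the libraries of the 2 cell types did not overlap, again counted over the members only. Without the cultures of WT replicate 3 and hTDP-43 replicate 3, whose total mRNA stood apart, 79 members were lower, where 39.3% of all genes were, and the median was -1.47. With control libraries only (GFP against WT), 59 members were lower in total mRNA and 82 in footprints. No all-gene share is given for these 2 fits.

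Rpl8 total mRNA ranged from 1026 to 1278 CPM in MN1 cells and from 111.5 to 326.5 CPM in neurons (-2.39 ± 0.23, adjusted p = 4.15e-08, edgeR). After Rpl39l, the largest differences were those of Rps27l (-3.12 ± 0.22), Rpl10 (-2.78 ± 0.18), Rps27a (-2.74 ± 0.20) and Rpl14 (-2.64 ± 0.16). Rpl10 joins the large subunit late in its assembly, and Rps27a is made as a fusion with ubiquitin. Rpl38 did not pass the test in total mRNA (-0.52 ± 0.25, adjusted p = 0.0657, edgeR). Its total mRNA ranged from 141.6 to 213.8 CPM in MN1 cells and from 44.2 to 204.5 CPM in neurons, which overlap.

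Genes outside the symbol rule that belong to the same system were also lower in neuron footprints. Some encode ribosomal proteins under other names: Fau, a fusion that yields a small subunit protein (-2.70), and Rack1, on the head of the small subunit (-3.15). Of 15 other TOP mRNAs, such as translation factors, all 15 were lower (median -1.64, with Npm1 at -3.15 and Eef1a1 at -1.10), and all 27 ribosome biogenesis genes were lower (median -2.06, with Fbl at -2.31 and Ncl at -2.04). Mitochondrial ribosomal proteins, encoded by nuclear genes without TOP starts, were lower for 67 and higher for 2 of 76, with a median of -1.01. Of 14 growth and TOP regulators, 5 were higher and 6 lower: Eif4ebp1 (-3.37), Myc (-3.14) and Larp1 (-1.51) were among the lower, and Mtor (0.56) among the higher. The cycling markers given above moved in the same direction as the ribosomal protein genes between the cell types, and the part of growth in the difference was not tested.

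**Figure D2:**
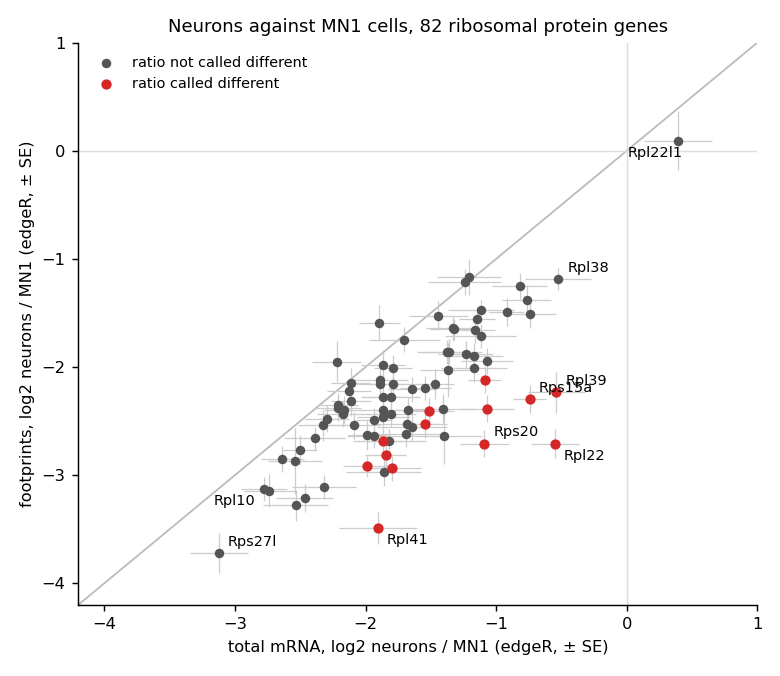
Log2 difference of neurons from MN1 cells (edgeR, ± SE) in total mRNA (horizontal axis) and footprints (vertical axis) for 82 ribosomal protein genes, with Rpl39l left out. Points below the diagonal line differed more in footprints than in total mRNA, the 13 called in the test of the ratio are red, and Rpl22l1 is the only point above 0 on both axes.

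Paralogs departed from their parent genes in several ways. Rpl39 and Rpl39l encode near-identical proteins of the peptide exit tunnel, and Rpl39l is known from testis and some tumours. Rpl39l footprints ranged from 32.3 to 53.2 CPM in the 6 MN1 libraries (243 reads in all), whereas in neurons 1 read was counted over the 8 footprint libraries. The ratio of these counts per assigned read was 469, with a 95% interval of 83.4 to 18594 for counting error only. In total mRNA, Rpl39l had 396 reads in MN1 cells (22.7 to 32.6 CPM) and 0 reads in the 8 neuron libraries, at least 299-fold lower against a floor of 3 counts over the 8 libraries. Rpl39l passed the filter on low counts through the MN1 libraries alone. In MN1 footprints its median level, 132.8 TPM, was above the 90.9 TPM of Rpl39. Of their coding words, 85.5% of those of Rpl39l and 0% of those of Rpl39 were found nowhere else. The part of reads lost to copies in this order was not tested.

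Rpl22 was called lower in neurons and Rpl22l1 was not. Rpl22 binds RNA hairpins outside the ribosome too and is known to hold down the expression of Rpl22l1. Rpl22l1 footprints ranged from 7.81 to 15.1 CPM in MN1 cells and from 6.75 to 21.9 CPM in neurons, which overlap (0.09 ± 0.27, adjusted p = 0.754, edgeR). Its total mRNA ranged from 3.18 to 6.15 CPM in MN1 cells and from 3.69 to 11.7 CPM in neurons (0.39 ± 0.26, adjusted p = 0.175). Rpl22 footprints ranged from 221.2 to 295.0 CPM in MN1 cells and from 27.1 to 82.1 CPM in neurons, with no overlap (-2.71 ± 0.13). The median footprint levels of Rpl22 and Rpl22l1 were 196.9 and 14.0 TPM in MN1 cells and 36.6 and 19.6 TPM in neurons. The difference between the 2 paralogs was not itself tested.

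Rps27l, a p53-inducible copy of Rps27, was above its parent in MN1 footprints (390.7 against 329.2 TPM) and below it in neurons (47.3 against 78.6 TPM). Here too the parent loses more reads to copies, with 0% of coding words found nowhere else against 60.8% for Rps27l. Levels of the 2 genes are therefore not measured alike. Rps27l footprints ranged from 126.0 to 171.9 CPM in MN1 cells and from 8.31 to 27.4 CPM in neurons. Rpl7l1, a nucleolar relative of Rpl7, differed by -1.59 ± 0.16 against -2.40 ± 0.13 for Rpl7. Rpl36a and Rpl36al, which encode nearly the same protein, differed by -2.53 ± 0.14 and -2.54 ± 0.14. Rpl3l, Rpl10l and Rps27rt were close to 0, with median levels of at most 4.28 TPM in any cell type and library type, and were not tested in the comparison of the cell types.

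**Figure D3:**
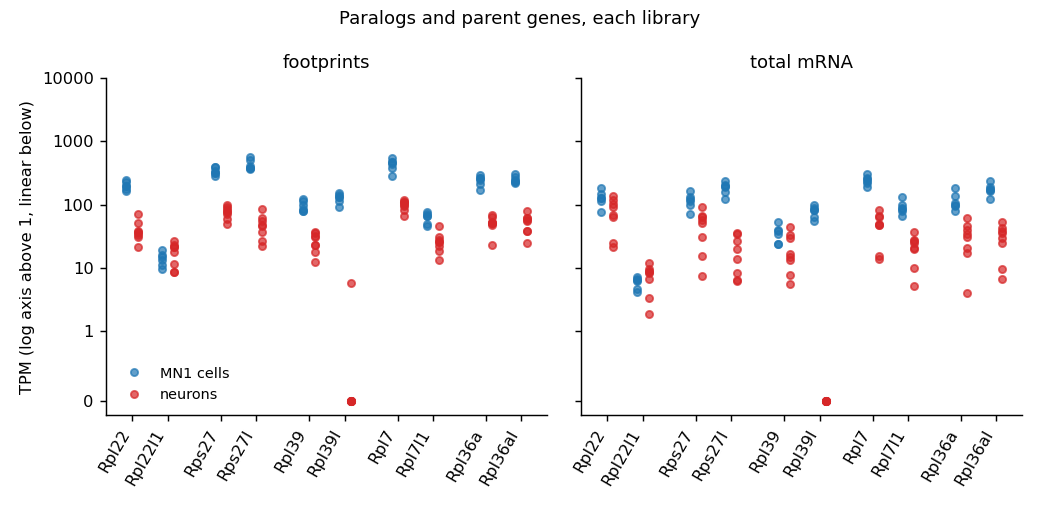
Level per length (TPM, log axis above 1 and linear below) of 5 parent genes and their paralogs in each footprint library and each total mRNA library (points), with 6 MN1 and 8 neuron libraries per gene. Rpl39l lies at 0 in all neuron libraries but 1, and Rpl22l1 overlaps between the cell types.

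Footprints relative to total mRNA give the share of ribosomes on an mRNA for its abundance. In MN1 cells, 71 of 83 members were higher in footprints than in total mRNA and 6 were lower, where 29% of all 9972 genes tested were higher and 31.2% lower. The median log2 ratio of the members was 0.86 (1.81-fold, quartiles 0.60 and 1.18) and that of all genes -0.04. Other coding genes as short as the 27 shortest members were also raised, with a median of 0.51 (409 genes). Those in the range of the 27 longest members had a median of -0.02 (3067 genes). The highest were Rpl37 (1.82 ± 0.11), Rpl35 (1.73 ± 0.09), Rps27 (1.67 ± 0.11), Rps25 (1.64 ± 0.09) and Rpl39 (1.57 ± 0.13). Rps25 is a small subunit protein used by some viral internal ribosome entry sites.

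Rpl37, a zinc-binding protein of the large subunit, shows the size of this difference. Its MN1 footprints were 491.0, 508.1 and 474.0 CPM in replicate 1 of GFP, hTDP-43 and A315T and 425.9, 419.9 and 398.8 CPM in replicate 2. The matching total mRNA was 166.1, 141.8 and 146.7 CPM, then 156.5, 156.6 and 93.0 CPM. Each footprint library was above each total mRNA library.

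The 6 members with fewer footprints than total mRNA in MN1 cells were Rpsa (-1.03 ± 0.12), Rplp0 (-0.79 ± 0.12), Rpl18 (-0.42 ± 0.14), Rpl7l1 (-0.42 ± 0.13), Rps2 (-0.39 ± 0.09) and Rplp1 (-0.33 ± 0.10). Rpsa sits at the back of the small subunit and is also known as the laminin receptor precursor. Its footprints were 271.6, 275.8 and 239.0 CPM in replicate 1 of GFP, hTDP-43 and A315T and 217.8, 150.3 and 187.3 CPM in replicate 2, against 439.9, 451.4 and 514.6 and then 599.8, 549.8 and 498.5 CPM in total mRNA. The library types did not overlap. Within the stalk, Rplp0 and Rplp1 were below total mRNA while Rplp2 was above it (0.69 ± 0.11). None of the coding 30-base words of Rpsa is found nowhere else, and the part of its copies in this value was not tested.

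In neurons, 32 of 82 members were higher in footprints than in total mRNA and 8 were lower, where 26.2% of all 11034 genes were higher and 31.9% lower. The median log2 ratio was 0.34 (1.27-fold), and that of all genes -0.06. Other coding genes as short as the 27 shortest members had a median of 0.21 (434 genes). Those in the range of the 27 longest had a median of -0.04 (3311 genes). The highest were Rpl35 (1.24 ± 0.19), Rpl19 (1.17 ± 0.17), Rps13 (1.10 ± 0.17), Rpl22l1 (1.07 ± 0.26) and Rpl14 (0.92 ± 0.15). The 8 lower members were Rpsa (-1.66 ± 0.20), Rpl22 (-1.35 ± 0.20), Rps2 (-1.29 ± 0.20), Rps20 (-0.97 ± 0.20), Rplp0 (-0.90 ± 0.17), Rpl41 (-0.74 ± 0.29), Rps12 (-0.73 ± 0.22) and Rpl13a (-0.57). Rpsa and Rplp0 were thus called lower in both cell types, as was Rps2, which lies near the mRNA entry channel. With the block 44 members were higher and 7 lower, with no all-gene share given. The highest value in that fit was that of Rpl10l (3.43), which had a median of 1.54 TPM in neuron footprints and 0 in total mRNA. Without the 2 cultures that stood apart, 32 members were higher and 9 lower (median 0.22, all genes 0.00).

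The order of the members by this ratio was alike in the cell types, with a Spearman correlation of 0.67 over 82 genes. The points share gene length, sequence and loss to copies. The ratio decreased with coding length in MN1 cells (Spearman -0.35) and hardly did in neurons (-0.03). The part of length in the members' ratios was not tested. The 13 genes with a pyrimidine run at an annotated start had a median log2 ratio of 0.91 in MN1 cells, against 0.89 in 50 without one, and of 0.41 in neurons, against 0.34 in 49. Among other lists in MN1 cells, 10 of 15 other TOP mRNAs were higher in footprints and 2 lower (median 0.37), 17 of 27 biogenesis genes were higher and 2 lower (median 0.36), and 54 of 76 mitochondrial ribosomal proteins were higher and 0 lower (median 0.57). In neurons the higher and lower counts were 7 and 2, 11 and 1, and 41 and 2 of the same lists.

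**Figure D4:**
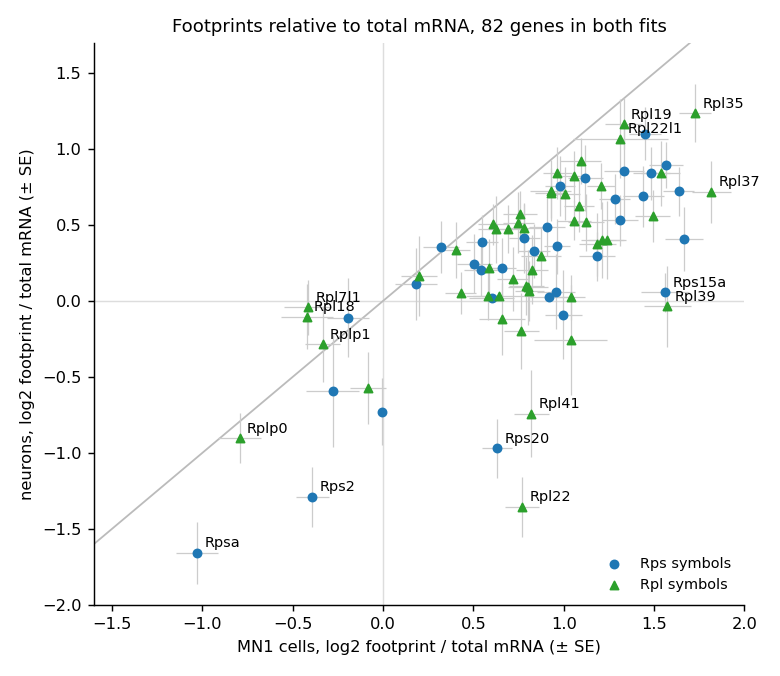
Log2 ratio of footprints to total mRNA (edgeR, ± SE) in MN1 cells (horizontal axis) and neurons (vertical axis) for 82 ribosomal protein genes, with small and large subunit symbols marked apart and a line of equal values. Most points lie above 0 on both axes and below the line, Rpsa is lowest on both axes, and Rpl22, Rps20 and Rpl41 are above 0 in MN1 cells and below 0 in neurons.

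The ratio itself was lower in neurons than in MN1 cells for part of the members. An interaction of library type and cell type called 13 of 83 members lower and 0 higher, where 3.34% of all 11730 genes were lower and 7.43% higher. The median difference of the members was -0.37 and that of all genes 0.16. With DESeq2 size factors 23 members were lower and the all-gene split turned, from 871 higher and 392 lower to 316 and 608. DESeq2's own test called 28 members. For this last count, and for that without WT replicate 3 below, no all-gene share is given. The members' count also varied with the libraries: without the 2 cultures that stood apart it was 43 (median -0.58, all genes 0.13), where 3.73% of all genes were lower, and without WT replicate 3 alone 29. With the replicate numbers as a block, 16 members were lower and 1, Rpl7l1, higher (0.58, adjusted p = 0.0389, edgeR), where 4.05% of genes were lower and 10.9% higher. The 7 tested members with 50% or more of their coding words to themselves had a median of -0.08, with 0 called by edgeR. For 15 other TOP mRNAs the median was 0.08, with 0 called, and for 76 mitochondrial ribosomal proteins it was 0.06, with 1 higher and 4 lower.

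Rpl22 differed most between the cell types in this ratio (-1.98 ± 0.24, adjusted p = 1.97e-06, edgeR). Its log2 ratio ranged from 0.46 to 1.00 over the 6 MN1 cultures. In 7 neuron cultures it lay between -2.08 and -1.21, and in hTDP-43 replicate 3, whose footprint library was the shallowest and whose total mRNA stood apart, it was 0.32. The total mRNA of Rpl22 ranged from 110.4 to 190.5 CPM in MN1 cells and from 65.4 to 155.5 CPM in neurons, so the total mRNA overlapped between the cell types while the footprints did not.

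The other members called were Rpl39 (-1.47 ± 0.30), Rps20 (-1.42 ± 0.24), Rpl41 (-1.41 ± 0.34), Rps15a (-1.33 ± 0.19), Rps27 (-1.11 ± 0.24), Rpl37, Rpl27, Rpl21, Rps25, Rps2, Rps16 and Rps3a1. Rps20, in the head of the small subunit, had footprints of 283.9 to 337.9 CPM in MN1 cells and 20.5 to 74.8 CPM in neurons. Its total mRNA was 188.7 to 251.3 CPM in MN1 cells and 58.3 to 144.6 CPM in neurons. Both kinds of library were lower in neurons without overlap, the footprints by more. By length, the 27 shortest coding sequences (138 to 390 bases) had a median difference of -0.54 and the 27 longest (582 to 1257 bases) of -0.18, against -0.11 and 0.19 for other coding genes in the same ranges.

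Within a cell type, the TDP-43 groups were compared in pairs, in footprints, in total mRNA and in the ratio of the library types, 18 comparisons in all. None of them called a ribosomal protein gene by edgeR without a block, and none by DESeq2, with between 77 and 83 members tested. At an unadjusted p under 0.05 the count of members ranged from 0 to 33 by edgeR and from 0 to 20 by DESeq2. Counts at this threshold, here and below, are of members only and have no all-gene share beside them. Of all genes tested, edgeR called 0.0115% between A315T and GFP in MN1 footprints, 0.00965% in MN1 total mRNA, 0.01% between hTDP-43 and GFP in MN1 total mRNA, and 0% in the other 15. DESeq2 called 0.0346%, 0.012% and 0.0131% of all genes in MN1 footprints (A315T against GFP, hTDP-43 against GFP, A315T against hTDP-43), 0.029%, 0.01% and 0.109% in MN1 total mRNA in the same order, 0.00838% in neuron total mRNA of A315T against WT, and 0% elsewhere. Replicate numbers in the labels mark a shared date within a cell type, apart from 1 MN1 GFP footprint library whose label gives another year, and a fit with the number as a block called members in 3 comparisons, all within MN1 cells and all with A315T. In the MN1 comparisons where the block called no member, it called 0.156% of all genes in footprints and 0.472% in total mRNA (hTDP-43 against GFP), 0.706% in footprints of A315T against hTDP-43, and 0.0198%, 0% and 0.0399% for the ratio (A315T against GFP, hTDP-43 against GFP, A315T against hTDP-43).

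Total mRNA of ribosomal protein genes was lower in A315T than in GFP MN1 cells for 27 of 83 members with the block, and higher for 0, where 1.61% of all 10361 genes were lower and 1.02% higher. The members' median log2 difference was -0.31 with or without the block, and that of all genes 0.00. Without the block 33 members had an unadjusted p under 0.05, and with it 54, with no all-gene share beside these counts. In 40 members both A315T libraries lay below both GFP libraries, and in 0 above. Between hTDP-43 and GFP these counts were 16 and 3. They were made over the members only, so no all-gene share stands beside them.

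Rps29, a zinc-binding protein of the small subunit head, had the largest difference among those called. Its total mRNA was 336.4 and 266.1 CPM in GFP replicates 1 and 2, 314.7 and 287.1 CPM in hTDP-43, and 261.4 and 149.6 CPM in A315T. Both A315T libraries were below the other 4, and the second by much more. The log2 difference from GFP was -0.66 ± 0.10 with the block (adjusted p = 0.000214, edgeR) and -0.62 ± 0.24 without it (adjusted p = 0.849).

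Rps21 total mRNA was 780.6 and 739.0 CPM in GFP, 684.4 and 796.6 CPM in hTDP-43 and 651.0 and 458.5 CPM in A315T (-0.55 ± 0.09 with the block, -0.53 ± 0.16 and adjusted p = 0.849 without it, edgeR). Rpl22 total mRNA was 190.5 and 173.0 CPM in GFP, 168.8 and 166.1 CPM in hTDP-43 and 153.7 and 110.4 CPM in A315T (-0.55 ± 0.10 with the block). In both genes replicate 2 of A315T was again the lowest library. Rps15 (-0.52 ± 0.10) and Rpl37 (-0.52 ± 0.11) followed. Rpsa and Rplp0 differed by -0.10 and 0.00 with the block, and Rplp1 and Rplp2 by -0.39 ± 0.08 and -0.35 ± 0.09, of which the last pair passed the test.

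The called members were lowest in 1 library. The total mRNA of A315T replicate 2 was the lowest of the 6 MN1 total mRNA libraries in 60 of 83 members and in all 27 that were called. Within replicate 1, the members' median difference of A315T from GFP was -0.05, with 45 of 83 lower, against 0.12 for all genes. Within replicate 2, it was -0.41, with 83 of 83 lower, against 0.02 for all genes. With 1 library of each group in a replicate, these are values with no test. In a fit without A315T replicate 2 and without the block, the median difference from both GFP libraries was -0.18. There 78 of 83 members were below 0, against a median of -0.02 for all genes. In that fit the lone A315T library was assumed to vary like those of GFP. Whether the 27 calls made with the block depend on A315T replicate 2 was not tested.

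The difference also followed coding length. Across the 83 members the Spearman correlation of the log2 difference with coding length was 0.69. The 27 shortest coding sequences had a median of -0.44 and the 27 longest of -0.15. Among coding genes outside the members, 424 with coding lengths of at most 390 bases had a median of -0.21, and 3213 in the range of the longest members had a median of -0.02. Without the block edgeR called none of the 424 and no member, so this count does not set them apart. No count of the 424 with the block is given. The part of length in the members' difference was not tested.

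**Figure D5:**
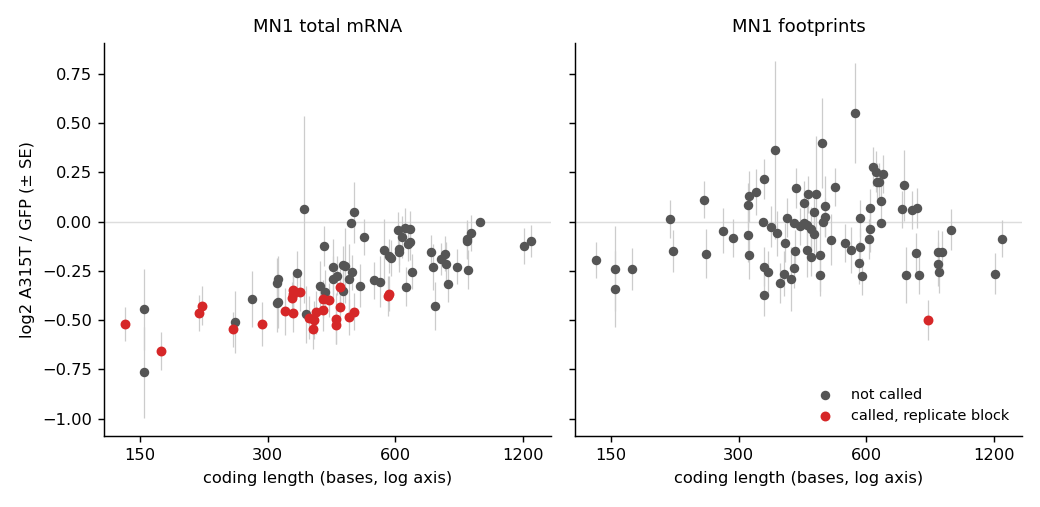
Log2 difference of A315T from GFP in MN1 cells (edgeR with the replicate block, ± SE where given) against coding length in bases (log axis) for 83 ribosomal protein genes, in total mRNA and in footprints. In total mRNA nearly all points lie below 0 and the 27 called (red) are all below 0, whereas footprints spread around 0 with 1 called, Rpl7.

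Footprints of the same cultures differed less. Between A315T and GFP the members' median was -0.05 in footprints (-0.14 to 0.02 with 1 culture left out), and with the block 1 member of 83, Rpl7, was lower, where 0.173% of all genes were. Rpl7 footprints were 607.7 and 538.2 CPM in GFP, 497.5 and 474.8 CPM in hTDP-43 and 491.5 and 327.7 CPM in A315T (-0.50 with the block, adjusted p = 0.0166, edgeR). Rps29 footprints, at 430.3 and 359.4 CPM in GFP and 336.2 and 342.3 CPM in A315T, and Rps21 footprints, at 1689 and 1551 CPM in GFP and 1802 and 1711 CPM in A315T, were not called. The ratio of footprints to total mRNA differed by a median of 0.25 between A315T and GFP, with 0 members called by edgeR or DESeq2, 2 at an unadjusted p under 0.05 by edgeR and 14 with the block.

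Against hTDP-43, which shares the A315T libraries with the comparison just given, the median member difference of A315T was -0.27 in total mRNA. With the block 5 of 83 members were lower, where 0.208% of all genes were: Rps29 (-0.67), Rps28 (-0.62), Rpl36 (-0.62), Rps21 (-0.52) and Rps26 (-0.46). Within replicate 1 the members' median difference from hTDP-43 was 0.04, with 35 of 83 lower, against 0.12 for all genes. Within replicate 2 it was -0.38, with 78 lower, against 0.08 for all genes. Without A315T replicate 2 and without the block, the median was -0.18. Between hTDP-43 and GFP the median was -0.03 in total mRNA and 0.05 in footprints, with 0 members called by edgeR with or without the block or by DESeq2, and 0 at an unadjusted p under 0.05 without the block in either library type.

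In cortical neurons no member was called by edgeR with or without the block or by DESeq2 in any of the 9 comparisons. At an unadjusted p under 0.05 at most 1 member passed in any of them without the block and at most 5 with it. The block called 0.158%, 0.111% and 0.147% of all genes in neuron footprints (A315T against WT, hTDP-43 against WT, A315T against hTDP-43), 0.344%, 0.125% and 0% in total mRNA in the same order, and 0% for the ratio. Between A315T and WT the median was -0.08 in footprints and 0.26 in total mRNA (0.60 with the block). The member with the smallest p was Rpl13a in footprints (-0.37 ± 0.17, adjusted p = 1.00, edgeR) and Rpl18 in total mRNA (0.69 ± 0.38). The WT group held 2 total mRNA libraries with unlike member shares, 0.876% and 0.240%. Leaving out WT replicate 2 left the library that stood apart as the lone control. In that fit the members' median for A315T was 1.05 in total mRNA and -1.16 in the ratio of the library types. The medians of all genes there were 0.02 and 0.03. Without WT replicate 3, the library that stood apart, the members' median in total mRNA was -0.26 with 79 of 82 below 0. That of the ratio was 0.27. The direction of the A315T values in total mRNA and in the ratio thus changed with the WT culture left out. Between hTDP-43 and WT the median was -0.01 in footprints and 0.02 in total mRNA. In total mRNA it was 0.80 without WT replicate 2, -0.47 without WT replicate 3 and 0.21 without hTDP-43 replicate 3, with 0 members called by edgeR in each.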

How the data were processed

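The authors clipped adapters with cutadapt 1.8.1, removed reads matching non-coding RNAs with Bowtie2, aligned the rest to GRCm38 with TopHat2 and deposited raw counts of reads per gene made with featureCounts 1.4.4 on Ensembl 80 genes, with reads on several places left out and strand not used. No replicates were pooled. Counts of genes with near-identical copies, or that overlap another gene, are uncertain.

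Members and gene lists were chosen with earlier results of these data known. Symbols, biotypes and coding lengths came from GENCODE M21. Groups came from the sample labels, which do not say whether cultures of neurons came from separate litters, so p-values measure the spread between these cultures. Low-count genes were dropped with filterByExpr (at least 10 reads in enough libraries and 15 in all). The others were scaled by TMM and tested together with edgeR 4.0.16 (quasi-likelihood, R 4.3.3), with only the compared groups in a fit, Benjamini-Hochberg adjustment and a threshold of 0.05. The study's DESeq was replaced by DESeq2 1.42.0 as an alternative. Scripts were tested on simulated counts. CPM and TPM were computed from the deposited counts. Intervals and floors cover counting error only.

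Same-numbered cultures share a date in the labels, except that the footprint library of GFP replicate 1 in MN1 cells gives the same day of another year. Its label numbers it as replicate 1, and it was used as such. Deviations of same-numbered cultures from their group means correlated by 0.33 on average for footprints and 0.45 for total mRNA of MN1 cells, and by 0.12 and 0.18 for those of neurons. Named members were the stalk proteins and other genes of known role, paralogs with their parents, the highest and lowest by level and by ratio, the 5 largest called differences in each direction, and where none was called the smallest p. A few that met these terms are not reported here. Standard errors were the log2 difference divided by the square root of the F statistic, and none is given where p exceeded 0.9. Alternatives were DESeq2's test and size factors, no low-count filter, protein-coding genes other than Lars2, control libraries only, coding length, the replicate block and each culture left out. After seeing the data, fits without the 2 cultures that stood apart and counts over members with mostly own coding words were added.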

Additional observations from a re-analysis of the deposited data

Results flagged for a closer look

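The difference of the footprint to total mRNA ratio between neurons and MN1 cells passed the interaction test in 13 members, all lower in neurons. The log2 differences were -1.98 for Rpl22, -1.47 for Rpl39, -1.42 for Rps20, -1.41 for Rpl41, -1.33 for Rps15a, -1.11 for Rps27, -0.95 for Rpl37, -0.84 for Rpl27, -0.77 for Rpl21, -0.76 for Rps25, -0.74 for Rps2, -0.73 for Rps16 and -0.62 for Rps3a1. Cell type, cycloheximide before lysis and mode of TDP-43 expression cannot be told apart in these values.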

How the results depend on the processing

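No called difference between cell types or library types changed direction under an alternative that was run. Medians of comparisons with no call did: with 1 culture left out, the median of A315T against WT in neuron total mRNA ranged from -0.26 to 1.05 and in the ratio from -1.16 to 0.27, that of hTDP-43 against WT in total mRNA from -0.47 to 0.80, and that of A315T against GFP in MN1 footprints from -0.14 to 0.02. The lower footprints and total mRNA in neurons, and the higher footprints in MN1 cells, had counts within 1.5 times the reported ones under each setting run. The count of 13 members with a lower ratio in neurons was 23 with DESeq2 size factors, 28 with DESeq2's test, 9 to 29 with 1 culture left out, 43 without the 2 cultures that stood apart, and 0 over the 7 members with mostly own coding words. DESeq2 size factors also moved the median difference of all genes from 0.16 to -0.03 and the split of all genes called from 871 higher and 392 lower to 316 and 608, while the members' median was -0.57. The replicate block raised the count for A315T in MN1 cells from 0 to 27 (total mRNA, against GFP), 5 (total mRNA, against hTDP-43) and 1 (footprints, against GFP). It moved no other count by over 1.5 times. With 1 culture left out, these counts without the block ranged from 0 to 6 (A315T against GFP; 6 without GFP replicate 2) and from 0 to 3 (A315T against hTDP-43; 3 without hTDP-43 replicate 1), and no filter on low counts gave 2. In neurons, A315T against WT gave 0 to 40 in total mRNA and 0 to 3 in the ratio, the highest without WT replicate 2. A lone culture was assumed to vary like those of the other group. The counts between TDP-43 groups with 1 culture left out are of members only and have no all-gene share beside them. They therefore do not set the members apart from other genes, and no conclusion is drawn from them. The causes of these moves were not tested. Levels per coding length instead of exon length were 6827 CPM per kb for Rps21 in MN1 footprints, 1588 for Rpl8 in MN1 total mRNA, and 584.2 and 788.2 for Rplp1 in neuron footprints and total mRNA. By that measure Rpl41, with the shortest coding sequence, lay above each of them. The members named as highest by TPM are thus highest by exon length only. The block could not be fitted between cell types within a library type, and control libraries only was not run for the ratio. Depth limits the neuron footprints most, where the shallowest library held 166064 reads.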
